A study of Mus musculus with 10 samples.

Results

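The endoplasmic reticulum (ER) stress response was followed through 10 listed genes, namely Xbp1, Ern1, Atf6, Hspa5, Hsp90b1, Dnajb9, Sel1l, Edem1, Sdf2l1 and Pdia4. They were chosen with earlier results of these data known. All 10 were found in the deposited table of 55359 genes and all 10 passed the filter on low values that left 18742 genes for testing. RNA was sequenced from lineage-negative (Lin−) bone marrow cells, obtained with a mouse lineage depletion kit, of mice homozygous for a floxed Dhx9 allele. The 5 libraries labelled WT came from Dhx9f/f mice without Cre, and the 5 labelled cKO from Dhx9f/f;MX1 mice (genotype label Dhx9 knock down), whose Cre is driven by the interferon-inducible Mx1 promoter and is switched on by injecting poly(I:C), a double-stranded RNA mimic. Mx1-Cre is not restricted to blood cells. The study's methods name the MX1-Cre mice as injected and set the usual time of analysis at a week after the first injection, and for some other experiments they date both groups from it. For the WT mice behind these libraries an injection is not stated outright, so the deletion and the injection cannot be told apart. The labels give neither age nor whether each library came from its own mouse, and p-values then measure only the spread between these libraries, which may be technical.

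Proteins that enter the ER are folded there by chaperones and disulfide isomerases, and those that fail are sent back to the cytosol and degraded. Unfolded protein in the ER activates 3 membrane sensors. IRE1 (gene Ern1) cuts the mRNA of Xbp1 so that it encodes an active transcription factor, ATF6 is carried to the Golgi and cleaved into a transcription factor, and PERK (gene Eif2ak3) slows translation while allowing that of ATF4. XBP1 and ATF6 raise chaperones, isomerases and the degradation machinery. In blood, XBP1 is known for its role in secretory cells such as plasma cells and eosinophils. Values here are FPKM (fragments per kilobase of gene, scaled to the mapped fragments of each library) for whole genes, so the cut and uncut forms of Xbp1 mRNA are summed and activation of IRE1 was not measured.

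The libraries held 13836000 to 17192000 fragments in those labelled cKO and 15042000 to 18712000 in those labelled WT, as read from the steps of the FPKM values. Dhx9, the targeted gene, lay between 65.43 and 72.42 FPKM under the WT label and between 130.82 and 156.49 under the cKO label. It was thus higher (limma adjusted p = 1.39e-05) where the labels give a knock down, and every direction below rests on the labels. Kit, a progenitor marker, was present in every library (18.73 to 54.36 FPKM). Xist was at 99.19 to 127.76 FPKM in WT libraries 3, 4 and 5 and at most 0.09 in the other 7 libraries, so sex-linked expression differed between the groups as well. A gene counted as called when the limma p, adjusted by Benjamini-Hochberg over the 18742 genes, was under 0.05 and the fold at least 2. Every log2 change given is the cKO label minus WT of log2(FPKM + 0.1), a scale on which genes of low level appear to change less than they do.

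A DNA element through which the ER stress response acts on its chaperone genes can be read in the promoters of this group. The ER stress response element (ERSE) is written CCAAT, 9 further bases and CCACG, which are bound by NF-Y and by ATF6 or XBP1. The 300 bases upstream of the canonical transcript start in GRCm39 were searched for it on both strands. Among the 10 genes, Hspa5 held it at 1 place and Hsp90b1 at 2. It was present in 18 of 18623 promoters of tested genes (0.0967%), and 10 of those 18 belonged to the ER genes listed for the pathway here. These were Hspa5, Hsp90b1, Calr, Canx, Creld2, Dnajc3, Pdia6, Ero1b, Syvn1 and Derl3. The sites of Hspa5, Hsp90b1 and 5 of the others are shown with 5 bases on either side, because the genes that carry them differed widely in their log2 change. They are written 5′ to 3′ on the strand that reads CCAAT first, on GRCm39, with CCAAT and CCACG in capitals.
Hspa5, chr2:34662032-34662060, plus strand: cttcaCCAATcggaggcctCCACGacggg
Hsp90b1, distal, chr10:86541497-86541525, minus strand: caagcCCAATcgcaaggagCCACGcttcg
Hsp90b1, proximal, chr10:86541392-86541420, plus strand: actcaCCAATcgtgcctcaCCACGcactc
Calr, chr8:85573699-85573727, plus strand: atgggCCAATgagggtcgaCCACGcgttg
Dnajc3, chr14:119175234-119175262, plus strand: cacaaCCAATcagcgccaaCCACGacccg
Pdia6, chr12:17316487-17316515, plus strand: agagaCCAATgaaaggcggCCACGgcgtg
Ero1b, chr13:12580558-12580586, minus strand: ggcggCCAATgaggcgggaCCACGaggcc
Syvn1, chr19:6096557-6096585, plus strand: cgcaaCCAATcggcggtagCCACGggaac
A match is a string of letters and was not tested for binding. The window overlapped an annotated exon for all of the 10 genes except Pdia4. The Hspa5 site and the proximal Hsp90b1 site lie inside the annotated bounds of their own genes. The other 8 of the 10 genes had no exact match in this window, which says nothing about regulation from elsewhere.

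Most of the 10 ER stress genes were lower in the libraries labelled cKO, but to very different extents, and in bulk RNA fewer cells of a type and less RNA per cell cannot be told apart. Xbp1, Ern1, Hsp90b1, Dnajb9, Edem1 and Pdia4 were called lower, which is 6 of 10 genes where 16.8% of all genes tested were called lower, and 0 were called higher (4.6% of all genes), with all 10 estimates below 0. On adjusted p alone, 8 of 10 were lower (28.3% of all genes), since Sdf2l1 and Atf6 passed without the fold limit. Hspa5 and Sel1l did not pass. For 7 of the 10, all 5 libraries labelled cKO lay below all 5 labelled WT, which held for 21.6% of all genes. The median log2 change of the 10 genes was -1.09, against -0.11 for all genes tested. Because the genes were chosen with earlier results of these data known, these counts and medians are descriptions only.

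**Figure D1:**
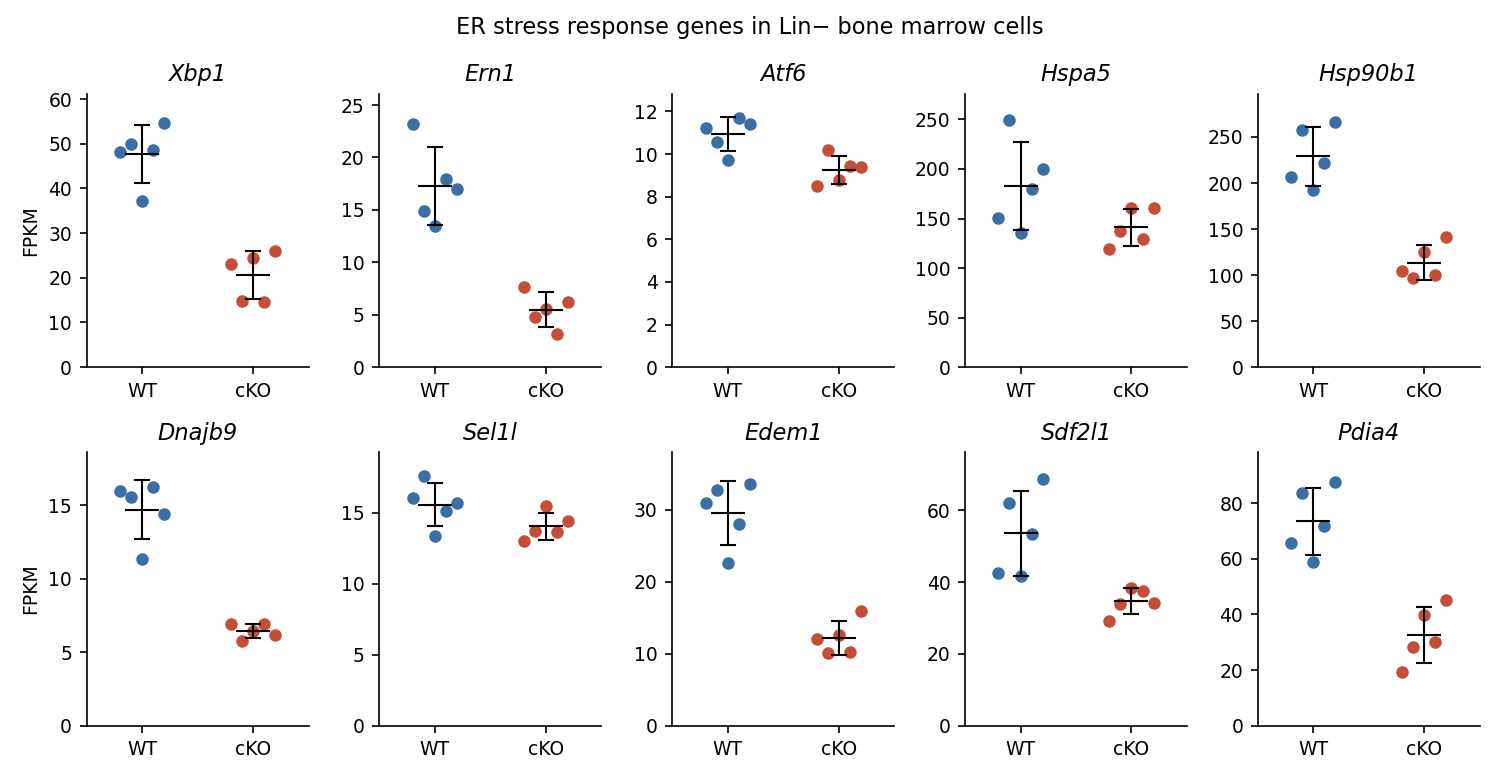
Level of each of the 10 genes in FPKM (y axis, from 0) in the 5 libraries labelled WT (blue) and the 5 labelled cKO (red). Each point is a library, and the bar is the mean with its SD. Xbp1, Ern1, Hsp90b1, Dnajb9, Edem1, Sdf2l1 and Pdia4 do not overlap between the groups, while Atf6, Hspa5 and Sel1l do.

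Xbp1 (ENSMUSG00000020484; chromosome 11 from 5470606 to 5483027, plus strand) encodes the transcription factor of the IRE1 arm. WT libraries 1 to 5 had 48.27, 49.91, 37.24, 48.56 and 54.72 FPKM, and the libraries labelled cKO 1 to 5 had 23.2, 14.83, 24.44, 14.64 and 25.93. The lowest WT library, number 3, was still above the highest of the other group, and the libraries labelled cKO held a pair, 2 and 4, under the other 3. The mean was 20.6 ± 5.45 FPKM against 47.7 ± 6.42 in WT (SD, n = 5 each), or 43.2% of the WT level. The log2 change was -1.24 (standard error, SE, 0.180, 95% interval -1.64 to -0.84, limma adjusted p = 3.44e-04). The study chose Xbp1 from these same libraries, so its fall here is not independent evidence. The gene lies inside Ccdc117 on the opposite strand, whose level was 28.6 ± 3.54 FPKM in WT and 26.9 ± 2.90 in the libraries labelled cKO (SD, n = 5 each). Whether counting used the strand is not given in the sources used here.

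Ern1 (ENSMUSG00000020715; chromosome 11 from 106283818 to 106378686, minus strand), the gene of IRE1 itself, fell the furthest of the 10. Its FPKM was 23.17, 14.93, 13.51, 17.92 and 17 in WT libraries 1 to 5 and 7.65, 4.78, 5.58, 3.2 and 6.23 in those labelled cKO. No library labelled cKO reached the lowest WT value. The mean went from 17.3 ± 3.71 to 5.49 ± 1.66 FPKM (SD, n = 5 each), that is, a log2 change of -1.67 (SE 0.218, limma adjusted p = 2.07e-04).

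Atf6 (ENSMUSG00000026663; chromosome 1 from 170532026 to 170696208, minus strand), the sensor of the second arm, differed little. It was at 11.24, 10.57, 9.7, 11.69 and 11.43 FPKM in WT and at 8.49, 10.2, 8.77, 9.43 and 9.4 in the libraries labelled cKO. The ranges overlapped, since the library labelled cKO 2 was above WT library 3. The log2 change was -0.24 (95% interval -0.41 to -0.06, limma adjusted p = 0.0316), and it was -0.13 (adjusted p = 0.212) with median-ratio scaling and -0.10 (adjusted p = 0.329) with quantile normalization, so the call on p alone rested on the scaling. It also rested on single libraries, with an adjusted p of 0.0501 to 0.0837 when WT 1, 2, 4 or 5 or the library labelled cKO 3 or 4 was left out.

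Hspa5 and Hsp90b1 encode the abundant ER chaperones BiP and GRP94, and both carry the ERSE shown above. Hspa5 (ENSMUSG00000026864; chromosome 2 from 34661982 to 34668880, plus strand) was at 150.41, 249.19, 134.99, 179.45 and 199.71 FPKM in WT and at 119.29, 137.11, 160.17, 128.85 and 160.33 in the libraries labelled cKO. The groups overlapped, and WT libraries 2 and 5 stood at the top. Its log2 change was -0.35 (95% interval -0.70 to -0.0012, limma adjusted p = 0.0945). It passed on p alone with quantile normalization (adjusted p = 0.0451) and without WT library 3 (adjusted p = 0.0305). Rabepk, which overlaps Hspa5 on the opposite strand, was at 6.65 ± 0.410 FPKM in WT and 9.64 ± 0.821 in the libraries labelled cKO (SD, n = 5 each).

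Hsp90b1 (ENSMUSG00000020048; chromosome 10 from 86526073 to 86541446, minus strand) was at 206.94, 257.65, 192.09, 222.25 and 266.59 FPKM in WT and at 104.1, 96.98, 125.51, 99.56 and 141.49 in the libraries labelled cKO. All of the latter were below all WT libraries. The log2 change was -1.02 (SE 0.126, 95% interval -1.30 to -0.74, limma adjusted p = 1.66e-04), just past the fold limit. It was -0.91 with median-ratio scaling and -0.99 to -0.96 when WT 2, WT 5 or the library labelled cKO 1, 2 or 4 was left out, where the gene no longer met that limit, although the adjusted p stayed under 0.05. A long noncoding RNA, Gm15344, overlaps it on the same strand, with means of 9.01 FPKM in WT and 3.02 in the libraries labelled cKO (log2 change -1.53, SE 0.318, limma adjusted p = 0.00268).

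Dnajb9 (ENSMUSG00000014905; chromosome 12 from 44252341 to 44257171, minus strand) encodes ERdj4, a co-chaperone of BiP and a textbook target of XBP1. It was at 15.97, 15.57, 11.37, 16.25 and 14.45 FPKM in WT and at 6.94, 5.8, 6.43, 6.94 and 6.21 in the libraries labelled cKO. The latter were close together (6.46 ± 0.490 FPKM, SD, n = 5), and no library of either label reached into the other group. Its log2 change was -1.17 (limma, SE 0.107, adjusted p = 5.24e-05).

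Edem1 (ENSMUSG00000030104; chromosome 6 from 108805457 to 108838955, plus strand), a lectin-like protein that marks misfolded glycoproteins for degradation, was at 31, 32.69, 22.61, 28.04 and 33.52 FPKM in WT. In the libraries labelled cKO it was at 12.06, 10.11, 12.6, 10.22 and 15.89. As for Xbp1, WT 3 was the lowest WT library and libraries 2 and 4 were the lowest of those labelled cKO. The log2 change was -1.28 (SE 0.143, limma adjusted p = 1.07e-04).

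Sel1l (ENSMUSG00000020964; chromosome 12 from 91772799 to 91815982, minus strand), the adaptor of the HRD1 ubiquitin ligase in the same degradation route, was at 16.04, 17.62, 13.37, 15.14 and 15.71 FPKM in WT and at 12.99, 13.7, 15.46, 13.62 and 14.4 in the libraries labelled cKO. The groups overlapped. The interval of its log2 change, -0.33 to 0.04 (estimate -0.15, limma adjusted p = 0.175), did not reach a change of 2-fold in either direction.

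Pdia4 (ENSMUSG00000025823; chromosome 6 from 47770077 to 47790462, minus strand), a disulfide isomerase, was at 65.78, 83.66, 58.89, 71.67 and 87.69 FPKM in WT and at 19.37, 28.25, 39.76, 30.15 and 45.19 in the libraries labelled cKO. Its log2 change was -1.22 (SE 0.208, limma adjusted p = 8.49e-04), with the library labelled cKO 1 lowest and no overlap between the groups. Sdf2l1 (ENSMUSG00000022769; chromosome 16 from 16948002 to 16950252, minus strand), a partner of ER co-chaperones, was at 42.48, 61.99, 41.74, 53.49 and 68.65 FPKM in WT and at 29.22, 33.86, 38.3, 37.66 and 34.24 in those labelled cKO. The groups did not overlap, and the fall of 0.61 on the log2 scale (95% interval -0.92 to -0.29, limma adjusted p = 0.00531) stayed under the fold limit. The exact two-sided permutation test gave p = 0.00794, the smallest that 5 against 5 allow, for each of the 7 genes whose groups did not overlap, and 0.0159 for Atf6, 0.0952 for Hspa5 and 0.103 for Sel1l. With the union of annotated exons taken as gene length, each gene rested on about 400 fragments or more in every library.

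**Figure D2:**
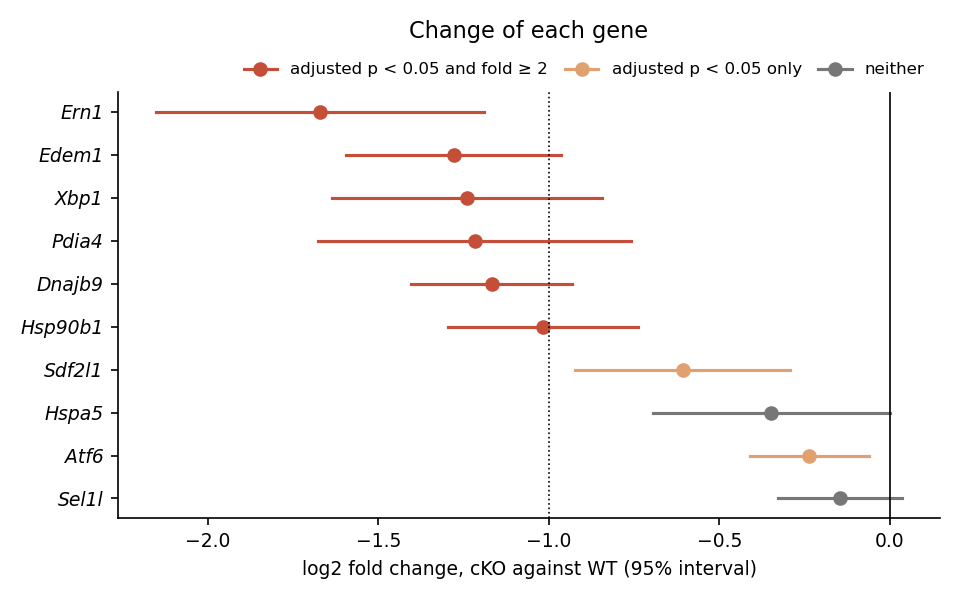
Log2 change of the libraries labelled cKO against WT for each of the 10 genes (points) with its 95% interval from limma (lines, n = 5 each). The dotted line marks a 2-fold fall. Ern1 is furthest to the left at -1.67, and the interval of Sel1l crosses 0 while that of Hspa5 ends just short of it. Red marks genes that passed both limits, orange those that passed on p alone and grey neither.

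Since FPKM are scaled to gene length, levels were set side by side. The lengths used for that are not given in the sources used here, and the order of genes depends on them. In WT the order of mean FPKM was Hsp90b1, Hspa5, Pdia4, Sdf2l1, Xbp1, Edem1, Ern1, Sel1l, Dnajb9 and Atf6, from 229 to 10.9. In the libraries labelled cKO it was Hspa5, Hsp90b1, Sdf2l1, Pdia4, Xbp1, Sel1l, Edem1, Atf6, Dnajb9 and Ern1, from 141 to 5.49. The ranges of neighbours overlapped except between Hspa5 and Pdia4 and between Xbp1 and Edem1 in WT, and between Hsp90b1 and Sdf2l1 and between Atf6 and Dnajb9 in the libraries labelled cKO.

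Within a library the order of several pairs was reversed between the labels, and such ratios do not depend on how libraries are scaled. The side of 1 on which a ratio falls does depend on the gene lengths. The pairs were chosen after their values were seen and are given without a test. Hsp90b1 exceeded Hspa5 in all 5 WT libraries, with ratios of 1.38, 1.03, 1.42, 1.24 and 1.34. It was under Hspa5 in all 5 libraries labelled cKO, at 0.873, 0.707, 0.784, 0.773 and 0.883. Ern1 exceeded Atf6 in all 5 WT libraries, by 1.39 to 2.06 times, and lay under it in all 5 labelled cKO, at ratios of 0.339 to 0.901. For the degradation factors, Edem1 was at 1.69 to 2.13 times Sel1l in WT and at 0.738 to 1.103 times in the libraries labelled cKO, where library 5 alone stayed above 1. A further pair, Pdia4 to Sdf2l1, overlapped between the labels, at 1.28 to 1.55 in WT and 0.663 to 1.32 in the others.

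**Figure D3:**
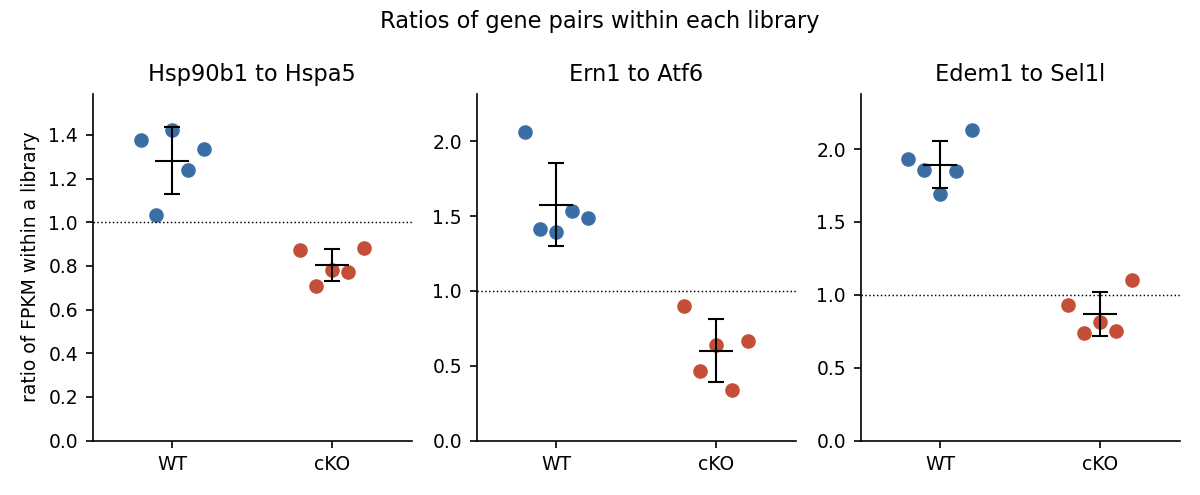
Ratio of FPKM within each library (y axis, from 0) for Hsp90b1 to Hspa5, Ern1 to Atf6 and Edem1 to Sel1l, in WT (blue) and in the libraries labelled cKO (red), with the mean and SD (n = 5 each). The dotted line is a ratio of 1. Hsp90b1 to Hspa5 and Ern1 to Atf6 are above 1 in all 5 WT libraries and under 1 in all 5 labelled cKO.

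After each label's mean was taken off, the 10 genes differed in how they varied from library to library. Pearson's r of log2(FPKM + 0.1) over the 10 libraries was 0.85 between Hspa5 and Sel1l, 0.82 between Hspa5 and Hsp90b1, 0.81 between Hspa5 and Sdf2l1 and 0.76 between Hspa5 and Pdia4. For Xbp1 it was 0.88 with Edem1, 0.81 with Hsp90b1 and 0.72 with Ern1, but 0.36 with Dnajb9, 0.23 with Sdf2l1 and -0.14 with Atf6. Hspa5 had an r of 0.65 with Edem1 and of 0.49 with Xbp1. The highest of all pairs was 0.895, between Hsp90b1 and Edem1, and the lowest was -0.35, between Ern1 and Sdf2l1. These are descriptions over libraries that share depth and cell mixture, and no test was made of them.

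The wider pathway was described with 8 lists of 132 genes drawn from general knowledge, of which 126 were tested. Across them 11 genes were called lower, where the all-gene share was 16.8%, and 8 higher, where it was 4.6%. Of those 11, 6 were the genes described above, so outside them the pathway was not called lower more often than genes at large. On adjusted p alone 63 of the 126 were lower and 21 higher, beside 28.3% and 16.7% of all genes. The counts of each list below stand beside these same shares.

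Among 13 tested sensors and transcription factors, Ern1, Xbp1 and Creb3l2 were called lower, and Ddit3 and Creb3l4 higher. Creb3l2, an ER-bound factor of the CREB3 family, went from 5.65 ± 1.25 to 1.20 ± 0.692 FPKM (SD, n = 5 each), that is, a log2 change of -2.32 (limma adjusted p = 7.32e-04). Eif2ak3, the gene of PERK, fell by 0.79 on the log2 scale on adjusted p alone, and Atf4, the factor downstream of it, rose by 0.81 on the same criterion. Atf4 was at 76.76 FPKM in the library labelled cKO 1, within the WT range of 67.06 to 88.77, and at 137.39 to 179.68 in the other 4.

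Of 19 ER chaperones, 2 were called lower and 13 were lower on adjusted p alone, with 0 higher on either criterion (limma) and a list median of -0.46. The 2 called, Hsp90b1 and Dnajb9, are below the all-gene share of 16.8%, while the 13 on p alone stand beside 28.3% of all genes. Calr, the calcium-binding lectin chaperone calreticulin, was the most abundant of them. It went from 503 ± 68.3 to 280 ± 32.0 FPKM (SD, n = 5 each), at a log2 change of -0.84 (limma adjusted p = 1.84e-04). Of 15 genes of oxidative folding, Pdia4 and Ero1b were called lower and 12 were lower on p alone, with Tmx1 and Prdx4 higher. Ero1b, which reoxidises the isomerases, went from 6.59 ± 1.48 to 1.71 ± 0.487 FPKM (SD, n = 5 each), that is, a log2 change of -1.90 (limma adjusted p = 1.24e-04). Its near relative Ero1a was at 20.46 to 24.2 FPKM in WT and 19.3 to 29.47 in the libraries labelled cKO. Pdia6 fell by 0.95 (limma adjusted p = 1.61e-04), under the fold limit.

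The 10 genes with an ERSE did not move as a block. The log2 change ran from -1.90 for Ero1b through -1.02 for Hsp90b1, -0.95 for Pdia6, -0.88 for Derl3, -0.84 for Calr, -0.80 for Dnajc3 and -0.55 for Creld2 to -0.35 for Hspa5, -0.25 for Syvn1 and -0.20 for Canx. Hspa5 (adjusted p = 0.0945) and Syvn1 (adjusted p = 0.113), the gene of HRD1, did not pass on p alone, and Derl3 (adjusted p = 0.05 after rounding) passed only just, at under 1 FPKM in every library.

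ER-associated degradation held changes in both directions. Of 25 genes, 1 was called lower and 0 higher, while on adjusted p alone 6 were lower and 8 higher, and the list median was 0.03, which turned to -0.01 when all libraries were scaled to an equal sum and to -0.03 in the libraries without Xist. Those lower included the mannose-trimming and lectin proteins of the ER lumen Edem1, Edem2 (log2 change -0.82), Edem3 (-0.83) and Os9 (-0.56). Another lectin of the lumen, Erlec1, did not pass. Those higher included the p97 cofactor Nploc4 (0.53, limma adjusted p = 2.53e-04) and the conjugating enzymes Ube2j1 (0.50) and Ube2j2 (0.48). Nploc4 was at 26.22 to 29.46 FPKM in WT and at 35.79 to 43.16 in the libraries labelled cKO, with no overlap. Other factors of the cytosolic face, namely Vcp, the gene of p97, Syvn1, Ube2g2, Faf2 and Rnf5, did not pass. These genes were picked out after their values were seen.

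Of 23 genes of translocation and glycosylation, 0 were called (limma) and 8 were lower on p alone, with a list median of -0.11. Uggt1, the folding sensor of glycoproteins, had the lowest estimate, -0.67 (limma adjusted p = 2.78e-04), followed in adjusted p by Tram1 (-0.48) and Sec61b (-0.44). With median-ratio scaling 3 genes of this list were higher on p alone, where 0 were without it, and 5 rather than 8 were lower. In ER to Golgi transport 1 of 19 genes was called lower and 13 were lower on p alone against 2 higher. That gene was Sec24d, a cargo-binding subunit of the COPII coat. It was at 7.86, 8.19, 5.73, 7.27 and 8.14 FPKM in WT and at 1.95, 0.53, 0.97, 0.46 and 1.27 in the libraries labelled cKO (log2 change -2.89, limma adjusted p = 1.11e-04). The receptors Kdelr1 (-0.53), which returns chaperones to the ER, and Surf4 (-0.59) fell less.

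Most targets of the PERK arm were higher. Of 10 genes, Ddit3, Trib3, Chac1, Ppp1r15a, Asns, Sesn2 and Nupr1 were called higher and 0 lower (on p alone 8 were higher and 1, Cebpb, lower), with a list median of 1.46. In 4 of the 10, all libraries labelled cKO lay above all WT libraries, which held for 10.6% of all genes. ATF4 is also reached from other stress kinases, and these targets are not specific to the ER. Asns, asparagine synthetase, was at 44.93 to 75.56 FPKM in WT and at 151.43 to 247.66 in the libraries labelled cKO (log2 change 1.95, limma adjusted p = 4.53e-05). Trib3, a pseudokinase induced by ATF4, was at 0.09 to 0.33 FPKM in WT and at 3.6, 44.81, 52.48, 44.47 and 39.11 in the libraries labelled cKO. Library 1 was thus far below the other 4 of its label. Chac1, a glutathione-degrading enzyme, was at 0.2 to 0.7 FPKM in WT, and at 0.31 in the library labelled cKO 1 against 2.9 to 8.34 in the others, so its groups overlapped through that library (log2 change 2.78, limma adjusted p = 0.0106). The same library was within or under the WT range for Sesn2, a stress-induced regulator of mTORC1 (4.2 FPKM against 4.3 to 6.29 in WT), and for Nupr1, a stress-induced chromatin protein (1.58 against 1.57 to 1.89). With only the 7 libraries without Xist (WT 1 and 2 against all 5 labelled cKO), Ddit3, Trib3, Ppp1r15a and Asns were still called and Chac1 (adjusted p = 0.169), Sesn2 and Nupr1 were not.

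The sequence through which ATF4 and C/EBP factors act on such targets, here written TTGCATCA and searched on both strands in the same window, was found in Ddit3, Chac1 and Atf3 among the 10 PERK arm genes and in 0.666% of all promoters. Of the other listed ER genes, Herpud1 (log2 change -0.51, limma adjusted p = 0.0594) and Aup1 (0.42, limma adjusted p = 7.56e-04) held it too. The sites of the PERK arm genes are shown in capitals with 5 bases on either side.
Ddit3, chr10:127126356-127126373, plus strand: aaacaTTGCATCAtcccc
Chac1, chr2:119181525-119181542, plus strand: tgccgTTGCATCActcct
Atf3, chr1:190915628-190915645, minus strand: cgcacTTGCATCAccaag
Atf3 was at 0.03 to 0.25 FPKM in WT, listed at 0 in the library labelled cKO 1 and at 0.78 to 1.11 in the other 4, and was not called (limma adjusted p = 0.0784).

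IRE1 is also known to cut some other mRNAs. Of 7 such substrates, 4 were expressed enough to be tested. Among these, Hgsnat did not pass on p alone (log2 change -0.20, limma adjusted p = 0.166). Bloc1s1, a widely used readout of this cutting, was at 13.5 ± 0.706 FPKM in WT and 9.84 ± 1.63 in the libraries labelled cKO (SD, n = 5 each), a log2 change of -0.47 (limma adjusted p = 0.00604). Pdgfrb (-1.96, limma adjusted p = 1.25e-04) and Sparc (-1.88, limma adjusted p = 0.00717), which are expressed by stromal cells, were called lower. Sparc no longer met the fold limit with a pseudocount of 1.

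**Figure D4:**
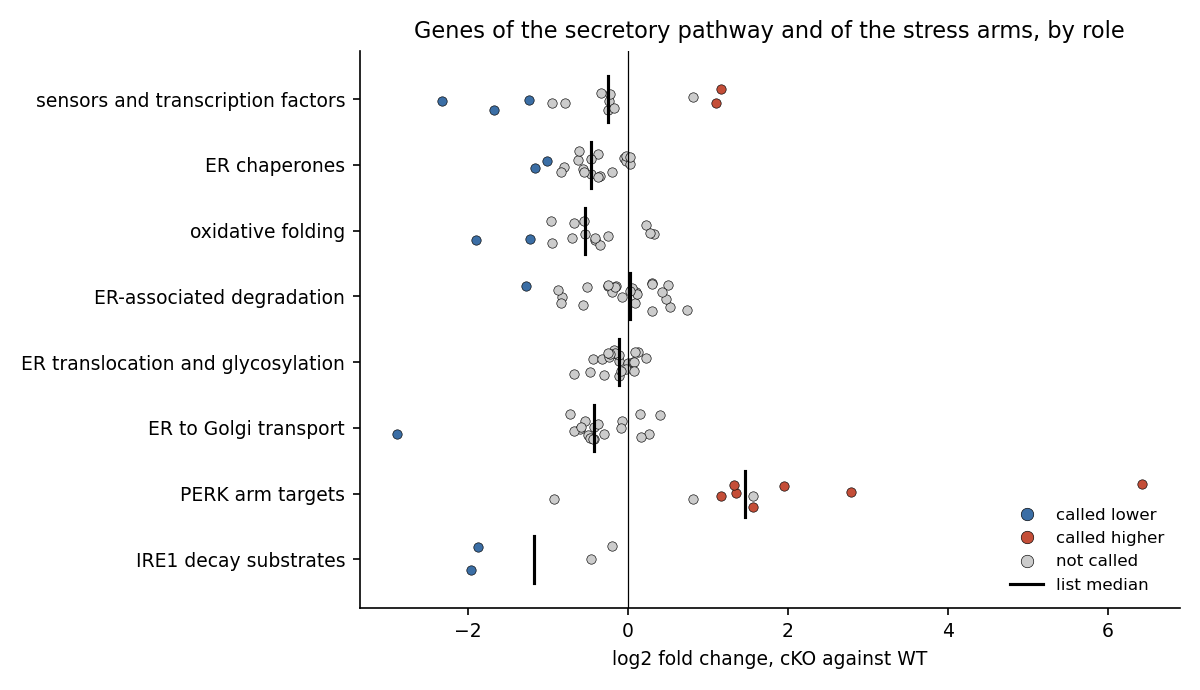
Log2 change of the libraries labelled cKO against WT (x axis) for the 126 tested genes of 8 lists (rows), with genes called lower in blue, higher in red and the list median as a black bar; a gene on 2 lists appears in both. The chaperone and oxidative folding medians are -0.46 and -0.54, and the PERK arm median is 1.46.

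The libraries also differed in their cell type markers, whose counts stand beside 16.8% of all genes called lower and 4.6% called higher. Of 11 erythroid markers 5 were called higher and 0 lower, and their summed level was 1672 to 2817 FPKM in WT and 4562 to 7684 in the libraries labelled cKO. Car1, a carbonic anhydrase and the most abundant of them, was at 591.77 to 892.98 and 1805 to 3793 FPKM. All 8 monocyte and dendritic cell markers were called lower, with sums of 790 to 1409 FPKM in WT and 4.99 to 236 in the libraries labelled cKO. Lyz2, lysozyme, led them at 460.35 to 918.13 and 2.09 to 124.82 FPKM. Of 9 neutrophil markers 4 were called lower, with sums of 2662 to 3605 and of 139 to 1699 FPKM. These 4 were the primary granule genes Elane, Mpo, Prtn3 and Ctsg, with Mpo at 973.78 to 1346 and 49.43 to 391.92 FPKM. The later granule genes Ltf (log2 change 1.39), Camp (0.98) and Ngp (1.43) had positive estimates that did not pass, and the library labelled cKO 1 was highest of all 10 for Ngp, at 317.58 FPKM, and for S100a8, at 442.9. Called lower were all 8 eosinophil markers, with sums of 217 to 689 and of 52.7 to 224 FPKM and Prg2 the most abundant. Of 6 mast cell and basophil markers 5 were called lower, with sums of 663 to 1326 and of 78.6 to 573 FPKM, and all 6 megakaryocyte markers, with sums of 267 to 1233 and of 78.9 to 181 FPKM and Ppbp the most abundant. Markers of plasma cells, which need XBP1 to secrete antibody, summed to only 12.1 to 19.9 FPKM in WT and 1.20 to 9.82 in the libraries labelled cKO. They were mostly Jchain, with Mzb1 at most at 0.55 FPKM and 3 of 6 called lower. Plasmacytoid dendritic cell markers had 3 of 6 tested called lower, and Bst2 made up most of their sums of 62.3 to 71.3 and 39.6 to 79.8 FPKM. B-lymphoid markers had 3 of 6 tested called lower, mostly Cd79b, with sums of 11.1 to 16.2 and 0.870 to 6.94 FPKM, and T and NK cell markers 4 of 7, mostly Nkg7, with sums of 77.8 to 101.7 and 7.29 to 27.95 FPKM. Progenitor markers had 3 of 6 called lower, with sums of 113 to 155 and 33.2 to 64.5 FPKM. No marker of any list was at 0 in all 10 libraries, but Mzb1, Tnfrsf17, Siglech, Klk1, Pacsin1, Ccr3, Ly6g, Igll1, Rag1, Cd3d, Klrb1c and Ncr1 were listed at 0 in at least 1 library labelled cKO. The part of these cell types in the results above was not tested.

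Xbp1 was lower in the libraries with more erythroid RNA, within the cKO label as well, but other marker sums followed the same order. From the highest erythroid sum to the lowest, the libraries labelled cKO came in the order 4, 2, 1, 3 and 5, and Xbp1 rose along it without exception, from 14.64 and 14.83 through 23.2 and 24.44 to 25.93 FPKM. In WT, library 3 had the highest erythroid sum and the lowest Xbp1, and library 5 the lowest sum and the highest Xbp1. The other 3 WT libraries did not follow the order exactly (48.27, 49.91 and 48.56 FPKM). Among the libraries labelled cKO, the monocyte (4.99 to 236 FPKM), progenitor (33.2 to 64.5), plasma cell (1.20 to 9.82) and B-lymphoid sums (0.87 to 6.94) rose along the same order as Xbp1. The remaining marker sums did not rise along the whole order. In WT, the monocyte and progenitor sums were likewise lowest in library 3 and highest in library 5. The order is thus not particular to the erythroid markers. All 10 ER stress genes were at their lowest WT level in WT 3, as were Creb3l2, Sec24d and Ero1b. Edem1, Ern1, Hsp90b1, Creb3l2, Sec24d and Ero1b were, like Xbp1, also lower in the libraries labelled cKO 2 and 4 than in the others of that label. The last pair also had the lowest neutrophil (163 and 139 FPKM) and monocyte sums (13.9 and 4.99 FPKM) of all 10 libraries. Among the libraries labelled cKO, none of the other 9 genes rose along the whole order as Xbp1 did. Edem1 (10.22 and 10.11 FPKM) and Hsp90b1 (99.56 and 96.98 FPKM) departed from it only between libraries 4 and 2. With 5 libraries in each of 2 separate groups no correlation is given, and the part of the cell mixture in the fall of Xbp1 was not tested.

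**Figure D5:**
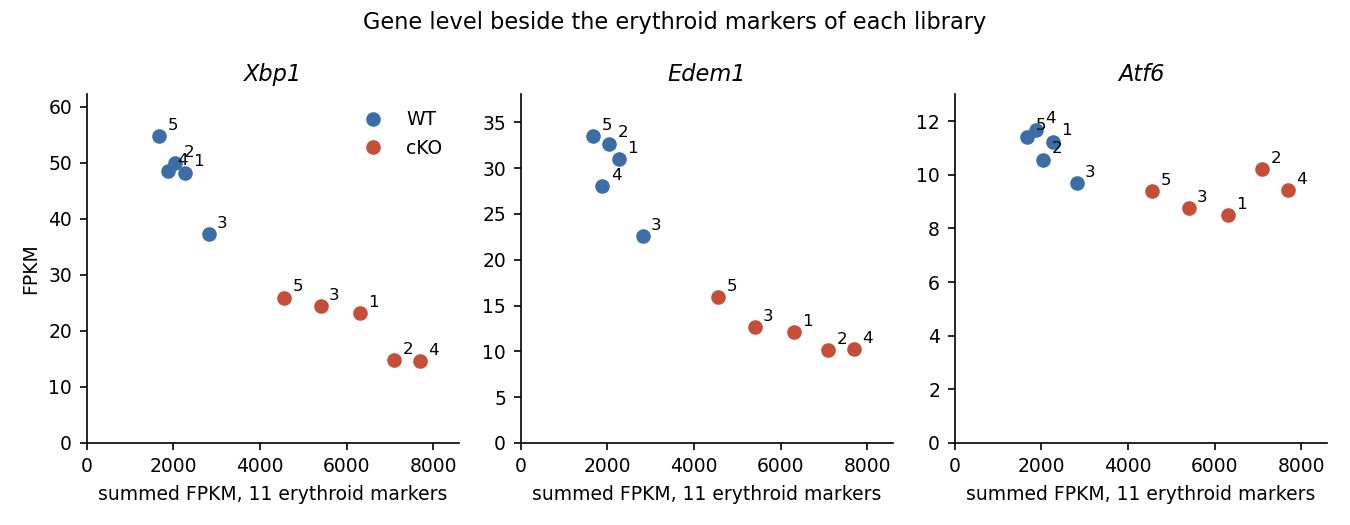
FPKM of Xbp1, Edem1 and Atf6 (y axes, from 0) against the summed FPKM of 11 erythroid markers (x axis) in each library, with WT in blue, cKO in red and the replicate number beside each point. In the libraries labelled cKO, Xbp1 falls from 25.93 to 14.64 FPKM as the erythroid sum goes from 4562 to 7684, while Atf6 stays between 8.49 and 10.2. The monocyte, progenitor, plasma cell and B-lymphoid sums (not drawn) fall over the same libraries.

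Among the 7 libraries without Xist, all 6 called genes were called lower as well, with log2 changes of -1.80 for Ern1, -1.40 for Edem1, -1.29 for Xbp1, -1.28 for Dnajb9, -1.25 for Pdia4 and -1.04 for Hsp90b1 (adjusted p of 0.00362 to 0.0250, limma). That subset sets WT 1 and 2 against all 5 libraries labelled cKO. Over all genes, 2261 were called lower in it, beside 3153 with all 10 libraries. Atf6 was no longer lower there on p alone (adjusted p = 0.158).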

How the data were processed

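The authors trimmed and filtered the paired-end reads, aligned them to GRCm39 with HISAT2 2.0.1 and deposited 1 FPKM value for every gene in every library, with 2 decimals. The submitters' processing notes also name cutadapt 1.9.1 and HTSeq 0.6.1. Annotation and gene lengths behind the FPKM are not given in the sources used here. The 10 columns were matched to samples by genotype and replicate number in their names. Identifiers were paired with symbols and positions in GENCODE M39 (GRCm39), which held 27828 of the 28093 identifiers above 0. Where a symbol had several identifiers, the protein-coding one was used.

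Depth was read from genes with a single transcript, whose FPKM are whole multiples of 1 fragment, and 96.0% to 96.5% of low values were whole within 0.2. A gene of 1000 bp at 3 fragments would be at 0.160 to 0.217 FPKM. No pair of libraries of a label agreed within sampling noise (the lowest chi-square divided by its degrees of freedom was 4.53). FPKM are not counts, so limma 3.58.1 (R 4.3.3, eBayes with a trend) was fitted to log2(FPKM + 0.1) of the genes whose mean reached 0.1 FPKM, two-sided, with Benjamini-Hochberg adjustment, and the step was tested on simulated data. Exact permutation tests used scipy 1.17.1. The genes, lists and tests were chosen with earlier results of these data known. The fit was repeated with pseudocounts of 0.01 and 1, unfiltered, with a minimum mean of 1 FPKM, with median-ratio, equal-sum and quantile scaling, without the trend, with a replicate block, with adjusted p alone, with an Xist covariate, in the libraries without Xist and without each library in turn. Named were the 10 genes, Dhx9, Xist, Ddx3y, up to 3 genes of each pathway list by change or adjusted p, the most abundant marker of each marker list and the genes most like Xbp1 or Hspa5, while other names were chosen after their values were seen. Vpreb1 had no match by symbol, and 1 gene that the naming rule selects is not reported here. Promoter sequence was read from the GRCm39 genome with pysam 0.24.0.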

Additional observations from a re-analysis of the deposited data

Results flagged for a closer look

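Dixon's test was applied to the 5 values of each label for 106 gene or marker-sum groups, and it set 1 library apart from the rest in 4 of them. Chance sets about 1 in 20 groups apart, or 5.3 of 106. None of the 10 ER stress genes was among them. Trib3 was at 3.6 FPKM in the library labelled cKO 1 against 39.11 to 52.48 in the other 4 of that label. Sparc was at 3.26 FPKM in WT library 2 against 0.85 to 1.42 in the others. In WT library 3 the basophil protease Prss34 was at 328.66 FPKM against 671.4 to 722.61 in the others. The mast cell and basophil markers summed to 663 FPKM there, against 1207 to 1326. All 10 ER stress genes were also at their lowest WT level in that library.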

How the results depend on the processing

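Of the 10 genes, 9 kept their direction and their side of the combined p and fold limit in every alternative that retained that limit, and Hsp90b1 missed the fold limit in 6. The count called lower was 6 in each of these settings except for 5 with median-ratio scaling and 5 to 6 with a library left out, and 0 were called higher throughout. With the replicate number as a block it was also 6, and over all genes 3107 were lower and 857 higher. Same-numbered libraries had correlations of deviations of -0.01 to 0.12, and 3 of 5 WT libraries went best with their own number. Whether the numbers pair any of the libraries was not settled by this. Over all genes, 3153 were called lower and 862 higher, against 1486 and 356 with a pseudocount of 1, 1827 and 462 at a mean of at least 1 FPKM and 5300 and 3138 on adjusted p alone. Quantile normalization gave 2245 lower and 1581 higher, and the libraries without Xist gave 2261 lower and 536 higher. Leaving out a library gave 2892 to 3268 lower and 762 to 948 higher. Of the pathway genes, 11 were called lower (10 to 15 with a library left out, 63 on p alone) and 8 higher (7 to 10, and 21 on p alone), but 5 higher with the Xist covariate and 4 in the libraries without Xist. Markers called higher went from 5 to 10 on p alone and were 5 to 6 with a library left out, and those called lower were 46 to 51. The change of Xist and Ddx3y reversed once Xist was a covariate (0.021 and -0.025 on the log2 scale), as did that of Ddx3y in the libraries without Xist (-0.025), both being settings that hold the Xist level constant. The all-gene median of the log2 change went from -0.11 to 0.10 with quantile normalization and to -0.01 with median-ratio scaling. Shifts of this size bear on genes with small estimates, here Atf6 and Sel1l. For single named genes, 874 of 933 alternatives kept the call.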

Other observations

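Genes whose pattern was most like that of Xbp1 after each label's mean was taken off were Klf6 (r = 0.98), Ncoa4-ps, Sptan1, B4galt5 and Cd164 (r = 0.97 each, over 10 libraries, among 12352 genes whose mean reached 1 FPKM). Klf6, a zinc-finger transcription factor, went from 16.6 to 5.16 FPKM on average, and B4galt5, a Golgi galactosyltransferase, from 5.28 to 0.944. With the label means left in, B4galt5, Ncoa4-ps, Klf6, Sptan1 and Tnfrsf1a came first (r of 0.99 each). Edem1 was the closest to Xbp1 of the other 9 ER stress genes, at place 384 of the former ranking. For Hspa5 the closest were Slain2 (r = 0.96), Rbm14, Pim2, Banp and Gm56398, with Sel1l, Hsp90b1 and Sdf2l1 at places 33, 46 and 58. These places describe 10 libraries that share depth and cell mixture, and nothing was tested on them.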
